A study of Mus musculus with 6 samples.

Results

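The genes described are 9 receptor chains through which myeloid cytokines act on blood cells: Csf2rb, Csf2rb2, Csf2ra, Il3ra, Il5ra, Csf3r, Il6ra, Il6st and Lifr. They were chosen by name from the 19938 genes that had a probe set with exactly 1 gene symbol, and all 9 were measured, each by 1 probe set. Expression was measured on 6 Affymetrix GeneChip Mouse Gene 1.0 ST arrays of mouse bone marrow cells that carry cKit and Sca1 and lack lineage markers (KSL cells), the fraction that holds haematopoietic stem cells and early progenitors. The DKO-labelled samples (n = 3) had the genotype Runx1fl/fl;Runx3fl/fl;Mx1-Cre+, and the WT-labelled samples (n = 3) were Mx1-Cre- littermates, so both groups carried the floxed alleles of both Runx genes. The background is given as C57BL/6, after a minimum of 3 backcross generations. Mx1-Cre is a recombinase gene driven by an interferon-inducible promoter, which is active well beyond blood cells. The protocol gives 7 injections of 600 µg of pIpC, an interferon-inducing RNA analogue, from 4 weeks of age, in the same words for both groups. Each sample description reads "untreated", and how long after the injections the cells were sorted was not stated. Each WT-labelled sample was pooled from 3 mice, and pooling of the DKO-labelled samples was not stated. The series text also speaks of 6 mice analysed, so whether n counts mice or pools is unsettled. The WT-labelled littermates lacked the transgene, and effects of Cre and of the deletions cannot be told apart.

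Receptors for granulocyte-macrophage colony-stimulating factor (GM-CSF), interleukin-3 and interleukin-5 pair a private alpha chain, which binds the ligand, with a shared beta chain, which carries the signal into the cell through the kinase Jak2 and the transcription factor Stat5. Mice hold an additional beta chain gene, Csf2rb2, whose product serves the interleukin-3 receptor. The receptor for granulocyte colony-stimulating factor works as a pair of identical chains, and the receptors for interleukin-6 and leukaemia inhibitory factor share the signalling chain gp130. These cytokines guide the survival and output of granulocytes, macrophages, mast cells and eosinophils.

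The targeted genes were examined first. Runx1 averaged 9.29 ± 0.08 in DKO-labelled samples and 8.47 ± 0.08 in WT-labelled samples on the log2 scale (SD, n = 3 each), which goes against the label of a knockout. Runx3 averaged 7.38 ± 0.03 in DKO-labelled samples and 7.53 ± 0.06 in WT-labelled samples, a difference of -0.15 that did not pass (limma adjusted p = 0.253). With a trend of fold changes over gene span and signal removed, a setting chosen after seeing the data, Runx3 was at -0.30 and passed (adjusted p = 0.0397), while Runx1 was at 0.50. A gene-level signal also reads probes outside the deleted exons, whose positions were not used here, so it cannot check the deletion. Every direction below is therefore that of the labels. Kit, which encodes the cKit of the sort, averaged 10.49 in DKO-labelled and 9.75 in WT-labelled samples. It was listed with Slamf1, Cd48, Flt3, Ptprc and Cd34, surface protein genes that are not named in the sort as described. Of these 6 genes 4 rose and 1 fell, where 9.71% of all genes rose and 7.69% fell. The surface protein genes Slamf1 and Cd48, by which stem cells are told from progenitors, rose by 1.95 and 1.46 on the log2 scale (adjusted p = 6.38e-05 and 7.18e-05), and Ptprc, which encodes CD45, and Kit rose by 0.76 and 0.73, while Flt3 fell by 1.32. Cd34, a progenitor surface protein, averaged 10.40 in DKO-labelled and 10.37 in WT-labelled samples. Kit and Cd34 both lay well above the array medians of 5.88 to 5.91. Ly6a, which encodes Sca1, was not analysed here. The granulocyte marker Ly6g was dim, at 4.19 in DKO-labelled and 4.34 in WT-labelled samples, as was the macrophage marker Adgre1, at 4.45 in DKO-labelled and 4.39 in WT-labelled samples. Most other genes of their marker lists were not dim. Below the lower quartiles of the arrays in both groups lay 2 of 10 neutrophil genes and 1 of 10 monocyte, macrophage and dendritic cell genes. Cd68 of the latter list averaged 7.12 in DKO-labelled and 7.42 in WT-labelled samples. The purity of the sort was not tested. Pearson correlations across all genes were 0.993 to 0.995 within the DKO-labelled arrays, 0.989 to 0.991 within the WT-labelled arrays and 0.976 to 0.98 between the groups, and no array duplicated another.

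Of the 9 receptor chains, 4 rose and 1 fell in DKO-labelled samples, and 4 did not pass (limma, adjusted p under 0.05 over all genes). The same test called 17.4% of all genes, 9.71% as rises and 7.69% as falls. The rises were both beta chains, the interleukin-5 receptor alpha chain and the receptor of granulocyte colony-stimulating factor, and the fall was the GM-CSF receptor alpha chain. The median difference of the 9 chains was 0.31 on the log2 scale, beside -0.04 over all genes tested. DKO-labelled and WT-labelled values did not overlap for 7 of the 9 chains, 5 with DKO-labelled values above and 2 with them below. Over all genes these shares were 35.8%, 16.2% and 19.6%. In such bulk samples a change in the mix of cells and a change of RNA per cell cannot be told apart.

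**Figure D1:**
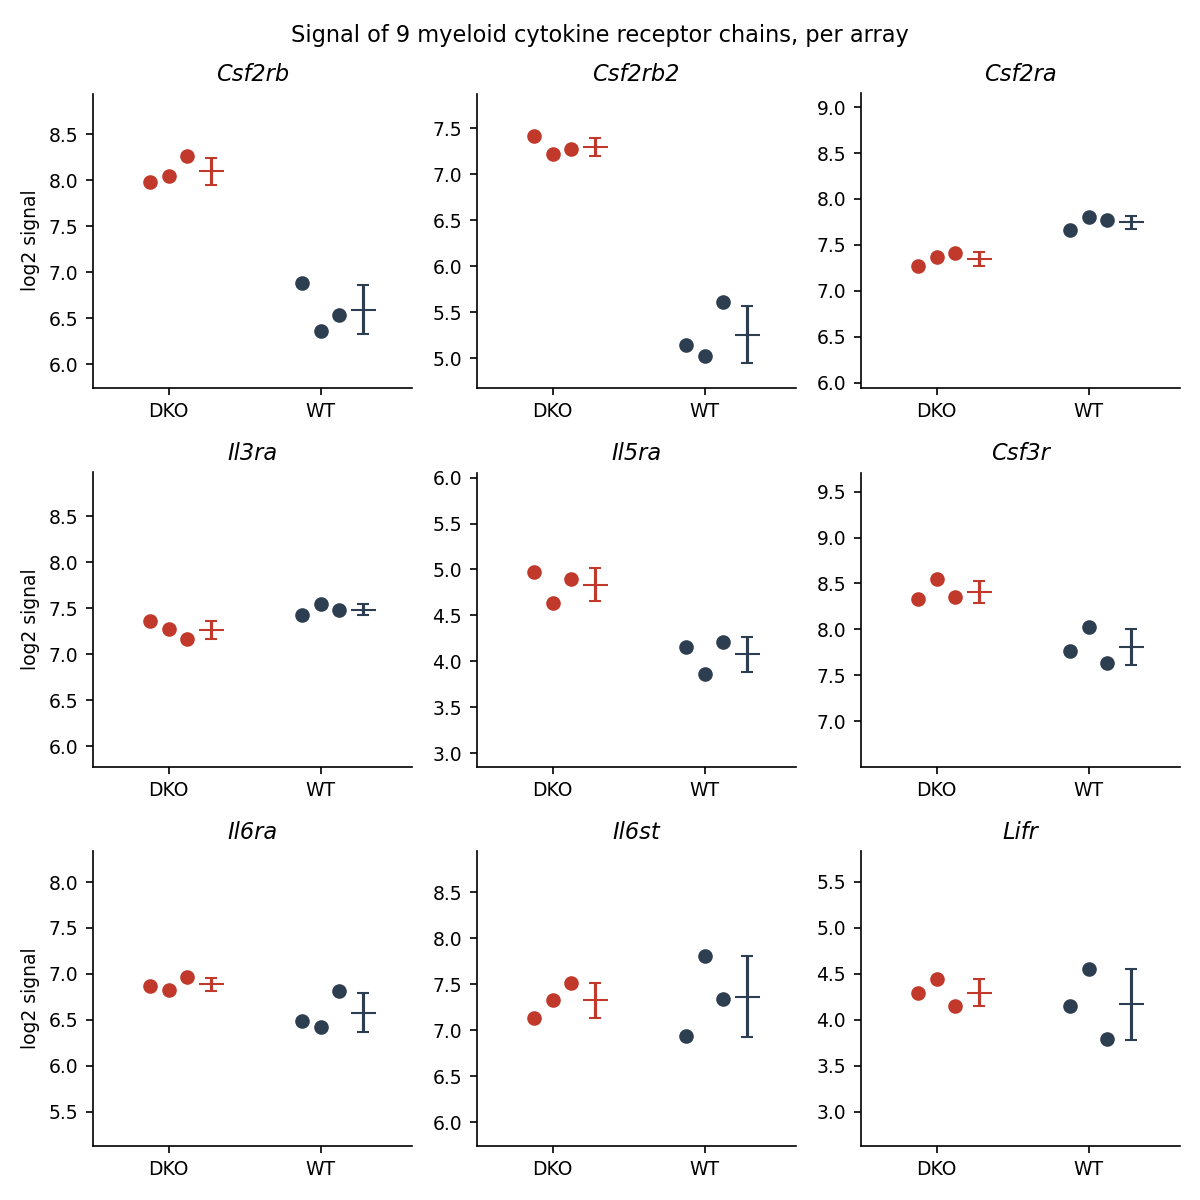
Log2 signal (y axis, each panel spanning the same range) of the 9 receptor chains on each of 3 DKO-labelled arrays (red, left) and 3 WT-labelled arrays (dark blue, right), with the mean ± SD beside the points. The groups lie apart for every chain except Il6st and Lifr, and the widest gap is that of Csf2rb2.

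The promoters of the 4 chains below are shown because these chains passed the test and the RefSeq table holds a promoter for each. They are the 250 bases before the RefSeq start of the gene, read 5′ to 3′ on the gene's strand in build GRCm38.p6, with matches to a GATA core (GATAA) and to a core of the kind bound by PU.1 (GAGGAA) on either strand in capitals. The Csf2rb2 window lies at chr15:78305722-78305971 on the minus strand, that of Il5ra at chr6:106749038-106749287 on the minus strand, that of Csf3r at chr4:126024409-126024658 on the plus strand and that of Csf2ra at chr19:61228419-61228668 on the minus strand.
Csf2rb2: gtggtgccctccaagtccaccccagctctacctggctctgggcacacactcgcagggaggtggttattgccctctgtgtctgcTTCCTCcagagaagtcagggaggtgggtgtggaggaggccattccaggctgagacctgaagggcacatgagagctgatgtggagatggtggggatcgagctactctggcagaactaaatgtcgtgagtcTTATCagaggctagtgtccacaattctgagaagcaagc
Il5ra: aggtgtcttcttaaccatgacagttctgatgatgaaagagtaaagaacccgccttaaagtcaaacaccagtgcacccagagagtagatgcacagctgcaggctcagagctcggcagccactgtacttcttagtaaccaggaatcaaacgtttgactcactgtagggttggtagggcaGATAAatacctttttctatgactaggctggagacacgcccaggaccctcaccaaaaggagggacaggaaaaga
Csf3r: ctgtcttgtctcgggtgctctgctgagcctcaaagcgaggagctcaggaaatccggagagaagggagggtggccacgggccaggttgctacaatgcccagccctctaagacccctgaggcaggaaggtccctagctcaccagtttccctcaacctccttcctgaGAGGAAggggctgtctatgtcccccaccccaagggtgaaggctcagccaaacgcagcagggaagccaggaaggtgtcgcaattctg
Csf2ra: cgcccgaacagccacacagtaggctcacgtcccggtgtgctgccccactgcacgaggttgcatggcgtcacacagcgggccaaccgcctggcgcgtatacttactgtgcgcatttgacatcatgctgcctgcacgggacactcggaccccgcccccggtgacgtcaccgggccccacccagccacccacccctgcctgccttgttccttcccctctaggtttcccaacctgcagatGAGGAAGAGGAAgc

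Of the 9 chains, 8 (all but Csf2rb) had at least 1 window in this table, and Lifr had 2. The core letters bound by RUNX proteins (TGTGGT, both strands) stood in 0 of these 9 windows and in 14.0% of all 32851 windows of the same length. GATAA stood in the windows of Csf2rb2, Il5ra, Il6ra and 1 of those of Lifr, and in 22.6% of all windows. GAGGAA stood in those of Csf2rb2, Csf3r, Il6ra and, as 2 adjoining copies, Csf2ra, and in 23.3% of all windows. The GATAA match of Csf2rb2 began 38 bases before the gene start and that of Il5ra 73 bases before it. Both matches of Csf2ra lay within the last 14 bases before the start. A match describes the letters of a window and shows no binding.

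Csf2rb2 showed the largest difference of the 9 chains. Its log2 signal was 7.41, 7.22 and 7.27 in the DKO-labelled samples, against 5.14, 5.02 and 5.60 in the WT-labelled samples. The lowest DKO-labelled value stood more than 1 log2 unit above the highest WT-labelled value. The chain rose 4.13-fold (2.05 on the log2 scale, SE 0.14, 95% interval 1.72 to 2.37, limma adjusted p = 4.87e-05), which ranked 14 among the rises of all 19938 genes. The WT-labelled mean of 5.25 lay below the array medians, which leaves the size of the fold uncertain.

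Csf2rb, the beta chain shared by the receptors of GM-CSF, interleukin-3 and interleukin-5, had log2 signals of 7.98, 8.04 and 8.26 in the DKO-labelled samples, against 6.88, 6.36 and 6.53 in the WT-labelled samples. All DKO-labelled values again lay above all WT-labelled ones, and the WT-labelled samples varied more. The chain rose 2.83-fold (1.50 on the log2 scale, SE 0.14, 95% interval 1.19 to 1.81, limma adjusted p = 0.000177) and ranked 49 among the rises. The 2 beta chain genes are close paralogs, and how far each probe set reads RNA of the other gene was not tested. The samples did not line up between them: among WT-labelled samples replicate 1 was highest for Csf2rb and replicate 3 for Csf2rb2, and among DKO-labelled samples replicate 3 was highest for Csf2rb and replicate 1 for Csf2rb2.

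The beta chain genes lie next to each other on chromosome 15, and the genes around them were compared as a description of the locus. Ncf4, a subunit of the phagocyte oxidase, is the next protein-coding gene on the side of Csf2rb2, and it had log2 signals of 6.63, 6.73 and 6.81 in DKO-labelled samples, against 6.36, 6.50 and 6.23 in WT-labelled samples. Its rise of 0.36 (SE 0.10, limma adjusted p = 0.0342) was much smaller than those of the beta chains and did not pass without DKO replicate 1, 2 or 3 (adjusted p = 0.0589, 0.0939 and 0.126) or without WT replicate 1 or 3 (0.0647 and 0.104), at 0.29 to 0.41. On the side of Csf2rb, Tex33 differed by 0.03 (adjusted p = 0.858), and Tst, which encodes a mitochondrial sulphur transferase, fell by 0.49 on the log2 scale (7.15 ± 0.13 in DKO-labelled and 7.63 ± 0.08 in WT-labelled samples, adjusted p = 0.00818). Over the 3 nearest protein-coding genes on each side of each of the 9 chains, 9 of 44 tested neighbours rose and 2 fell. Over all genes 9.71% rose and 7.69% fell, and the difference from these shares was not tested.

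**Figure D2:**
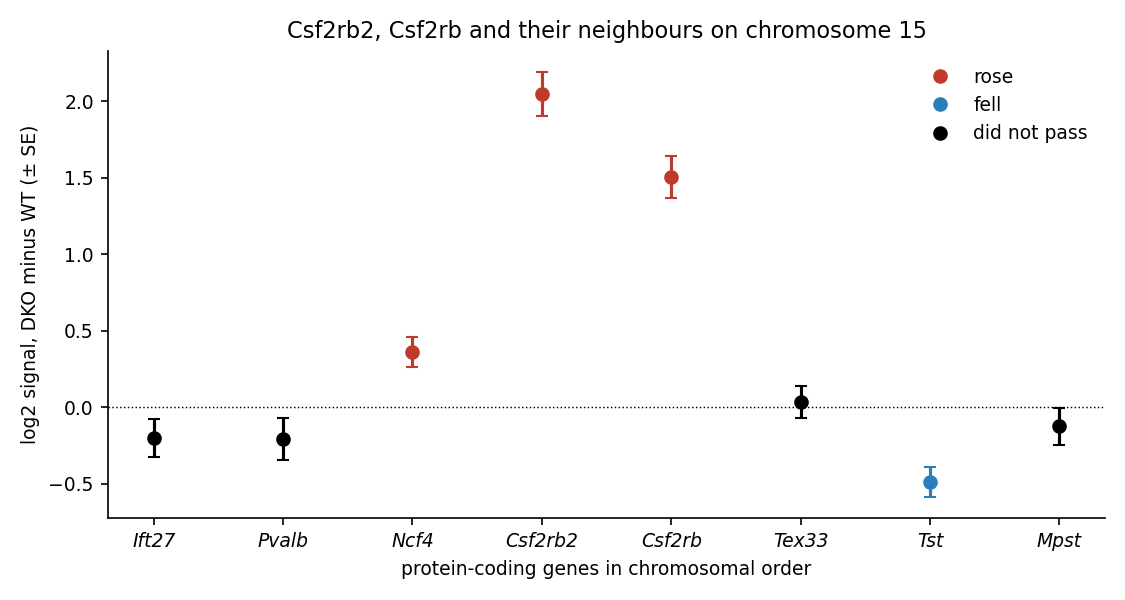
Difference of log2 signal, DKO-labelled minus WT-labelled (y axis, estimate ± SE of the limma fit), for Csf2rb2, Csf2rb and the nearest protein-coding genes in chromosomal order (x axis, not to distance). The beta chains stand at 2.05 and 1.50, whereas the 6 other genes lie between -0.49 and 0.36.

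Of the 3 private alpha chains that pair with these beta chains, 1 rose, 1 fell and 1 did not pass, and they were not tested against each other. Csf2ra, which binds GM-CSF, had log2 signals of 7.27, 7.37 and 7.41 in DKO-labelled samples, against 7.66, 7.80 and 7.77 in WT-labelled samples. The groups did not overlap, and Csf2ra fell by 0.39 on the log2 scale (SE 0.09, 95% interval -0.59 to -0.20, limma adjusted p = 0.0139), with a WT-labelled signal 1.31-fold that of the DKO-labelled one. The fall was -0.35 and did not pass when DKO replicate 1 was left out, where the adjusted p of 0.0634 was the highest over the alternatives (from 0.00624).

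Il3ra, which binds interleukin-3, had log2 signals of 7.36, 7.27 and 7.17 in DKO-labelled samples, against 7.42, 7.55 and 7.48 in WT-labelled samples. The values did not overlap, yet the gap between the groups was small. The difference of -0.22 (SE 0.09, 95% interval -0.42 to -0.01) did not pass (limma adjusted p = 0.135), and it stayed between -0.27 and -0.17 over the alternatives.

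Il5ra, which binds interleukin-5 and is known from eosinophils and some B cells, had log2 signals of 4.97, 4.63 and 4.90 in DKO-labelled samples, against 4.16, 3.86 and 4.21 in WT-labelled samples. The groups did not overlap, and Il5ra rose 1.69-fold (0.76 on the log2 scale, SE 0.13, 95% interval 0.48 to 1.04, limma adjusted p = 0.00338). The WT-labelled values were under the lower quartiles of all arrays (4.63 to 4.66) and the DKO-labelled ones at or just above them, so the fold is uncertain.

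The change of the beta chains relative to their partners was followed within each array, as the log2 ratio of 2 probe sets. Probe sets differ in response, so the sign of such a ratio has no meaning and only its change between the groups is read. Csf2rb over Csf2ra was 0.72, 0.67 and 0.84 in DKO-labelled samples, against -0.78, -1.44 and -1.24 in WT-labelled samples. The change was 1.90 (exact permutation p = 0.1, two-sided, the smallest that 3 samples against 3 allow). Over Il3ra, Csf2rb2 changed by 2.26 and Csf2rb by 1.72, and Csf2rb over Il5ra changed by 0.75, each without overlap between the groups (exact permutation p = 0.1, and 0.15 adjusted over 6 ratios). For the ratios over Csf2ra and Il3ra the lack of overlap, and so the p, was fixed in advance. In DKO-labelled samples the beta chains lay wholly above, and Csf2ra and Il3ra wholly below, the WT-labelled values. These p-values thus add nothing to the results of the single chains. Csf2rb2 over Csf2rb was -0.57, -0.82 and -0.99 in DKO-labelled samples, against -1.74, -1.34 and -0.93 in WT-labelled samples. That change of 0.54 came with overlap between the groups (exact permutation p = 0.2, adjusted 0.24). No ratio could reach the threshold of 0.05 with this number of samples.

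**Figure D3:**
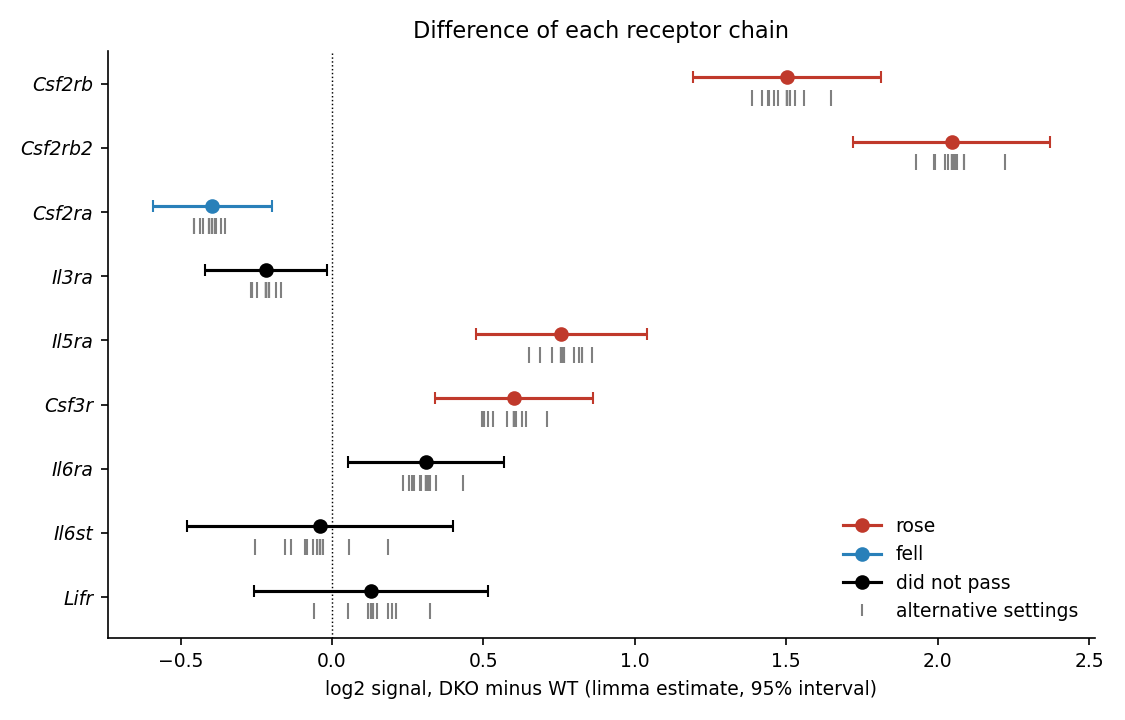
Difference of log2 signal, DKO-labelled minus WT-labelled (x axis), for each receptor chain (rows), as the limma estimate with its 95% interval (points and bars) and the values under the alternative settings (grey ticks). Csf2rb and Csf2rb2 lie above 1 under every setting shown, and the ticks of Il6st and Lifr lie on both sides of 0.

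Csf3r, the receptor of granulocyte colony-stimulating factor that drives neutrophil production, had log2 signals of 8.33, 8.54 and 8.35 in DKO-labelled samples, against 7.76, 8.02 and 7.64 in WT-labelled samples. The groups did not overlap, and replicate 2 was the highest in both. Csf3r rose 1.52-fold (0.60 on the log2 scale, SE 0.12, 95% interval 0.34 to 0.86, limma adjusted p = 0.00727), a call that held under every alternative at the threshold of 0.05 (adjusted p = 0.00388 to 0.0334).

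The chains of the gp130 family did not pass. Il6ra, which binds interleukin-6, had log2 signals of 6.87, 6.82 and 6.97 in DKO-labelled samples, against 6.49, 6.42 and 6.82 in WT-labelled samples. WT replicate 3 almost reached the lowest DKO-labelled value. The difference of 0.31 (SE 0.12, 95% interval 0.05 to 0.57, limma adjusted p = 0.0977) was 0.43 and passed when WT replicate 3 was left out, where the adjusted p of 0.0222 was the lowest over the alternatives (up to 0.257).

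Il6st, which encodes gp130 itself, had log2 signals of 7.13, 7.33 and 7.52 in DKO-labelled samples, against 6.93, 7.81 and 7.34 in WT-labelled samples. The WT-labelled samples held both the lowest and the highest of the 6 values. The difference was -0.04 (SE 0.20, 95% interval -0.48 to 0.40, limma adjusted p = 0.915). Il6st was at 0.19 without WT replicate 2 and at 0.06 without DKO replicate 1.

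Lifr, the partner chain of gp130 in the receptor for leukaemia inhibitory factor, had log2 signals of 4.29, 4.44 and 4.15 in DKO-labelled samples, against 4.15, 4.56 and 3.79 in WT-labelled samples. All 6 lay below the lower quartiles of the arrays, and the groups overlapped. The difference was 0.13 (SE 0.17, 95% interval -0.26 to 0.51, limma adjusted p = 0.665), and it was -0.059 when WT replicate 3 was left out. For both Il6st and Lifr the spread among WT-labelled samples was wider than for most genes, with SDs of 0.44 and 0.38 that exceeded those of 98.6% and 97.5% of all genes.

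The genes around these receptors were taken from lists of ligands, other receptors, signal carriers, inhibitors and targets. Over the lists, 87 distinct genes were tested, of which 9 rose and 8 fell. That is near the shares over all genes, of which 9.71% rose and 7.69% fell. Counts of single lists, here and below, stand beside the same shares. Of 11 ligands tested 0 rose and 1 fell. The one that fell was Ctf1, a cytokine of the gp130 family (5.78 ± 0.09 in DKO-labelled and 6.17 ± 0.06 in WT-labelled samples, limma adjusted p = 0.0163), which did not pass without DKO replicate 1 or 3 or WT replicate 3 (adjusted p = 0.0679, 0.0664 and 0.0504). Csf2 and Il3, the genes of GM-CSF and interleukin-3, differed by -0.08 and 0.01, Il5 by -0.14 and Csf3 by -0.18. Of 6 other chains of the gp130 family 0 rose and 0 fell, led by Il31ra at -0.38 (adjusted p = 0.0822).

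Among other growth factor and cytokine receptors, 2 of 10 rose and 1 fell. Kit, the stem cell factor receptor by which the cells were sorted, rose by 0.73 (adjusted p = 0.00289, and 0.43 with the trend of fold changes over gene span and signal removed), and Ifngr1, a chain of the interferon-gamma receptor, rose by 0.47 (adjusted p = 0.00693). Flt3, the receptor of a growth factor for early and lymphoid progenitors, fell by 1.32 (limma adjusted p = 0.000434). Csf1r and Epor, which bind macrophage colony-stimulating factor and erythropoietin, did not pass, at -0.25 (adjusted p = 0.324) and -0.04 (adjusted p = 0.853).

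Signal carriers downstream of the beta chains moved upward where they passed. Of 10 tested kinases and STATs 4 rose and 0 fell, with a list median of 0.25 on the log2 scale. Btk, a cytoplasmic tyrosine kinase, had log2 signals of 9.51 ± 0.01 in DKO-labelled and 8.43 ± 0.05 in WT-labelled samples, a rise of 1.08 (adjusted p = 6.39e-05). Jak2, the kinase that binds the beta chain, averaged 8.74 ± 0.05 in DKO-labelled and 8.08 ± 0.21 in WT-labelled samples, a rise of 0.66 (SE 0.11, adjusted p = 0.00422). Its value was 0.42 with that trend removed. Jak1, which works with gp130, and Stat5b rose by 0.39 and 0.40 (adjusted p = 0.0177 and 0.0139). Both calls were lost without DKO replicate 1 (adjusted p = 0.0534 for Jak1 and 0.0513 for Stat5b), without DKO replicate 2 (0.0709 and 0.0594) and with that trend removed, where Jak1 was at 0.07 and Stat5b at 0.24, and that of Jak1 also without WT replicate 3 (0.0569). In the fits that lost both, 2 of the 10 rose. Stat3 and Stat5a did not pass, at 0.26 (adjusted p = 0.146) and 0.24 (adjusted p = 0.157).

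Of 12 adaptors and phosphatases 1 rose and 0 fell, and the count of falls was 0 to 2 over the alternatives. The rise was that of Gab2, a docking protein that binds activated receptors (0.50, adjusted p = 0.0113), which was at 0.28 and did not pass with the trend removed (adjusted p = 0.113). Pik3cd, a catalytic subunit of phosphoinositide 3-kinase, differed by -0.26 (adjusted p = 0.0682), and it passed as a fall with quantile normalisation (0.0356), with cyclic loess (0.0374), without the dimmest 50% of genes (0.0418) and, at -0.40, with the trend removed (0.0141). Of 10 inhibitors of this signalling (Cish, genes of the SOCS family, Pias1 and Pias3) 1 rose and 1 fell, with 1 to 3 rises and 0 to 1 falls over the alternatives. Pias1, an inhibitor of STAT proteins, rose by 0.64 (adjusted p = 0.00223, and 0.39 with the trend removed). Socs6 and Socs4, further members of the SOCS family, stood at 0.65 (adjusted p = 0.0558) and 0.45 (adjusted p = 0.0581). Neither passed, whereas Socs6 passed in 4 alternatives and Socs4 in 5, among them the replicate block (0.00874 for Socs6 and 0.0287 for Socs4). As the mean over its probe sets, however, Socs6 was at -0.015 (adjusted p = 0.940), so its value depends on the probe set used. Socs3, the inhibitor that acts on gp130 and on the receptor of granulocyte colony-stimulating factor, fell by 0.35 (adjusted p = 0.0417), a call lost without any 1 of DKO replicates 1, 2 and 3 or WT replicates 1 and 3 (adjusted p = 0.0942 to 0.124), with the replicate block (0.0671), with cyclic loess (0.0566), as the mean over its probe sets (0.0745) and with the trend removed (0.109).

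Of 18 target genes of STAT5 and STAT3, 0 rose, 2 fell and 16 did not pass, with a median of -0.06. Ccnd1, which encodes cyclin D1, fell by 0.67 (6.20 ± 0.09 in DKO-labelled and 6.87 ± 0.21 in WT-labelled samples, adjusted p = 0.00447), and Socs3 is the other. Cish, Socs2 and Pim1, which are induced through Stat5, each differed by 0.07 and did not pass, with 95% intervals of -0.18 to 0.32 for Cish, -0.31 to 0.46 for Socs2 and -0.11 to 0.25 for Pim1.

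**Figure D4:**
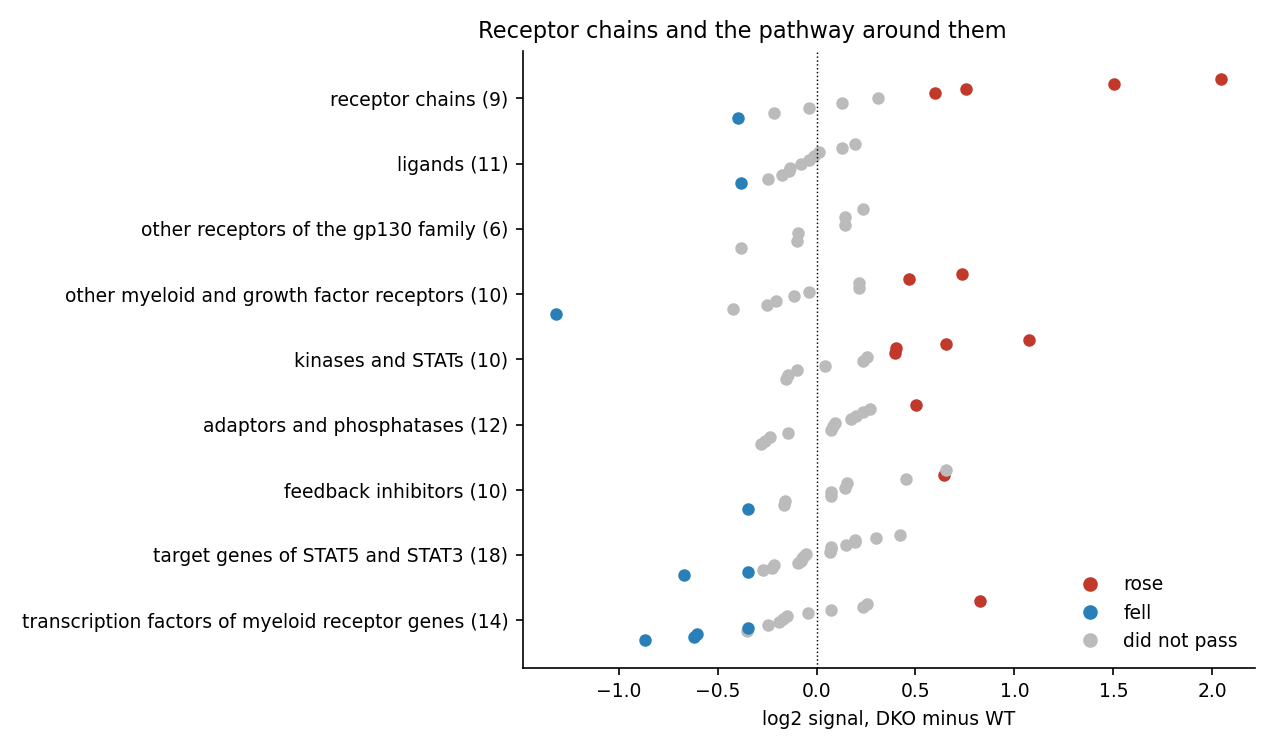
Difference of log2 signal, DKO-labelled minus WT-labelled (x axis), for every tested gene (points) of the receptor chains and the 8 lists around them (rows, number of tested genes in brackets, heights within a row spread for legibility). Rises stand for 4 of 9 receptor chains and 4 of 10 kinases and STATs, and falls for 4 of 14 transcription factors.

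Of 14 transcription factors known to act on myeloid receptor genes, 4 fell and 1 rose, which was Runx1 itself (0.82, adjusted p = 0.000427, and 0.50 with the trend removed). Spi1, which encodes PU.1, a factor that drives Csf2ra, Csf3r and Csf1r, averaged 6.93 ± 0.07 in DKO-labelled and 7.54 ± 0.05 in WT-labelled samples, so that it fell by 0.62 (adjusted p = 0.00138). Irf8, a factor of monocytes and dendritic cells, fell by 0.87 (adjusted p = 0.00173), and Cebpe, a factor of granulocyte maturation, by 0.34 (adjusted p = 0.0296). Cebpe did not pass without DKO replicate 1 or 3 or WT replicate 2 or 3 (adjusted p = 0.0721, 0.115, 0.0662 and 0.0753), with the replicate block (0.0567) or with the trend removed (-0.25, 0.108). Cebpa, a factor that drives Csf3r, fell by 0.60 at the edge of the threshold (adjusted p = 0.0499), with overlapping values, and did not pass without DKO replicate 1, 2 or 3 or WT replicate 2 or 3 (adjusted p = 0.0566 to 0.162), with the trend removed (0.0836), with median centring (0.0560) or with either other use of probe sets (0.0502 and 0.0571). Cbfb, the partner of RUNX proteins, differed by -0.35 (adjusted p = 0.114), and it passed after removal of the trend (adjusted p = 0.0227), cyclic loess (adjusted p = 0.0338) or quantile normalisation (adjusted p = 0.0258). Gata2, a factor of stem cells and mast cells, differed by 0.24 (adjusted p = 0.16).

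Markers of cells that carry these receptors, and of other blood cells, also differed between the groups, and their part in the results above was not tested. Of 15 tested genes of mast cells and basophils, which use the interleukin-3 receptor, 6 rose and 3 fell. Their summed signal, on the linear scale, was 4602 to 5628 units in DKO-labelled samples, against 1854 to 1998 units in WT-labelled samples. Kit, by which the cells were sorted, is among the 6 rises and in the sum. It was the brightest gene of the list in WT-labelled samples (9.75 on the log2 scale). In DKO-labelled samples Cpa3 (10.96) and Kit (10.49) were the brightest. Cpa3, a mast cell carboxypeptidase, rose by 3.43 and Ms4a2, a chain of the IgE receptor, by 2.24 (adjusted p = 5.6e-07 and 0.000683). Mcpt8, a protease gene of basophils, fell by 1.32 (adjusted p = 0.00313) and Prss34, likewise, fell by 0.82 (adjusted p = 0.0109). Fcer1a, another chain of the IgE receptor, fell by 0.68 (adjusted p = 0.0421), a call lost without any 1 of the DKO replicates (0.0786 to 0.126), with cyclic loess (0.0743) and with the trend removed (0.0697). Of the 15, 5 lay below the lower quartiles in both groups, among them Fcer1a and the protease genes Cma1, Tpsab1 and Mcpt4.

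Of 7 eosinophil genes, which stand beside Il5ra, 1 rose and 1 fell, and their summed signal was 302 to 325 units in DKO-labelled samples, against 303 to 385 units in WT-labelled samples. Siglecf rose by 0.70 (adjusted p = 0.00207) and Prg2, a granule protein gene, fell by 0.95 (adjusted p = 0.00893), while Epx, the eosinophil peroxidase gene, differed by -0.02. Of 10 granulocyte-monocyte progenitor genes, which stand beside Csf2ra and Csf3r, 1 rose and 6 fell, with summed signals of 3008 to 4410 units in DKO-labelled samples, against 5211 to 5368 units in WT-labelled samples. Csf3r thus rose while Elane, the neutrophil elastase gene, fell by 2.30 (adjusted p = 4.67e-05) and Ms4a3, another gene of these progenitors, by 1.84 (adjusted p = 1.46e-05). The 1 rise of the list was Fcgr3, by 0.82 (adjusted p = 0.000551). Mpo, the brightest gene of the list in both groups (11.32 in DKO-labelled and 11.51 in WT-labelled samples), did not pass, at -0.20 (adjusted p = 0.382). Ctsg and Gfi1 did not pass either, at -0.92 and -0.25 (adjusted p = 0.0829 and 0.148). Of 10 genes of mature neutrophils 1 rose, the chemokine receptor Cxcr2 (3.26, adjusted p = 1.71e-05), and 0 fell. Their summed signal was 787 to 905 units in DKO-labelled samples, against at most 661 units in WT-labelled samples. The higher sum rests on Cxcr2, the brightest gene of the list in DKO-labelled samples (9.04 on the log2 scale, against 5.77 in WT-labelled samples). The 9 genes that did not pass all had lower means in DKO-labelled samples, with differences from -0.02 (Ltf) to -0.78 (S100a9). The list median was -0.23.

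Of 8 genes of megakaryocytes and platelets 4 rose and 0 fell, with summed signals of 1531 to 2279 units in DKO-labelled samples, against 1006 to 1099 units in WT-labelled samples. The platelet glycoprotein genes Gp5, Itga2b and Gp9 rose by 2.80, 0.91 and 0.39, and the platelet receptor gene Treml1 by 1.50 (adjusted p = 1.74e-05, 0.000557, 0.0167 and 0.000302). The call of Gp9 was lost without DKO replicate 1 or 2 (0.0633 and 0.0638). The rest of this list did not pass: Pf4, Ppbp and Vwf differed by -0.51, -0.44 and -0.12, and Clec1b by 1.28 (limma adjusted p = 0.256, 0.427, 0.388 and 0.0653). Of 8 B cell genes 0 rose and 2 fell, namely Cd72 by 2.05 and Vpreb1 by 1.59 (adjusted p = 5.64e-05 and 0.0015), with summed signals of 452 to 548 units in DKO-labelled samples, against 886 to 1118 units in WT-labelled samples. The lower B cell sums rest largely on Cd72 and Vpreb1, the brightest of the list in WT-labelled samples (7.97 and 8.64 on the log2 scale). Cd79a, Ms4a1 and Ebf1 lay below the lower quartiles in both groups. Among 9 genes of T and NK cells the cytotoxic granule gene Nkg7 fell by 2.02 (adjusted p = 8.42e-06) and 0 rose. The sums were 363 to 385 units in DKO-labelled samples, against 790 to 836 units in WT-labelled samples. That gap rests on Nkg7, the brightest gene of the list (7.13 in DKO-labelled and 9.15 in WT-labelled samples). The other 8 genes did not pass, and Cd3d, Klrb1c, Ncr1 and Gzmb lay below the lower quartiles in both groups. Of 8 erythroid genes 0 rose and 2 fell. Car1 fell by 2.02 and Klf1 fell by 0.54 (adjusted p = 0.00243 and 0.0136, and 0.0526 for Klf1 without DKO replicate 3), and the sums of this list overlapped, at 1414 to 1717 units in DKO-labelled and 1632 to 2126 units in WT-labelled samples. Among 10 genes of monocytes, macrophages and dendritic cells Cd163 rose by 0.64 and Ccr2 fell by 0.75 (adjusted p = 0.0097 and 0.00322), and among 10 of endothelial and stromal cells Pdgfrb fell by 0.66 (adjusted p = 0.031), a call lost without DKO replicate 1 or 3 or WT replicate 2 or 3 (0.065 to 0.119).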

How the data were processed

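The authors deposited 1 log2 signal for each probe set on each of the 6 arrays. The titles of the samples point to RMA at gene level, a procedure of background correction, quantile normalisation and probe summary, and the design text to MAS 5.0. The deposited log2 values (1.25 to 13.7, with array medians close together) have the form of RMA output. Per the submitters' processing notes, the software was Affymetrix Expression Console 1.0. Among 35556 probe sets, 21789 had exactly 1 gene symbol in the platform annotation. For each of the resulting 19938 genes the probe set with the highest mean over all arrays was used, and dim genes were kept.

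Groups came from the labels, which call the samples biological replicates. limma 3.58.1 in R 4.3.3 was run on the log2 values (lmFit and eBayes, DKO minus WT, two-sided, 5.52 prior and 4 residual degrees of freedom), with Benjamini-Hochberg adjustment over all genes and a threshold of 0.05. Every adjusted p of a gene comes from this fit, except where an alternative is named, when it comes from the limma fit of that alternative. "Rose" and "fell" are used of genes past the threshold.

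The receptor chains and gene lists were chosen with earlier results of these data known. The rule for named genes covers the 9 chains, up to 4 genes of each list with the smallest p, genes past the threshold where a list has 5 or fewer of them, Runx1, Runx3 and Cbfb, and markers that move with a chain. Some genes that it covers are not printed, and some without a call are given beside them. The locus neighbours were chosen after values of the chains were seen. The alternatives changed the normalisation between arrays, the filter on dim genes, the use of probe sets, the variance model, the threshold or the samples. Removal of a loess trend of fold changes over gene span and signal was added after the data were seen. Promoters are RefSeq sequences (GRCm38.p6). With 3 arrays a group, precision is limited throughout, and all titles carry the same date tag, so no batch could be separated.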

Additional observations from a re-analysis of the deposited data

How the results depend on the processing

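The rises of Csf2rb, Csf2rb2 and Csf3r kept their direction and their side of the threshold under all 18 alternatives, with values of 1.39 to 1.65, 1.93 to 2.22 and 0.49 to 0.71 on the log2 scale. Il5ra did so under the 16 alternatives that measured it (0.65 to 0.86), since it and Lifr fell out with the dimmest 25% and 50% of genes. At a threshold of 0.01 Csf2ra (-0.39) did not pass, which leaves 0 falls, 588 falls and 1058 rises over all genes and 4 falls among pathway genes. Without 1 sample at a time, Csf2ra was at -0.44 to -0.35, Il6ra at 0.23 to 0.43, Il6st at -0.25 to 0.19 and Lifr at -0.059 to 0.32. In these fits the count of chains that fell was 0 or 1 and that of pathway genes that fell 4 to 9. Over all genes the rises numbered 1250 to 1868 and the falls 843 to 1388. The count of falls was 843, 876 and 854 without DKO replicates 1, 2 and 3, and that of rises 1250 without DKO replicate 3. Pathway falls numbered 4 without DKO replicate 1, DKO replicate 3 or WT replicate 3. Pik3r1 (-0.025 after removal of the trend) and Socs6 (-0.015 as the mean over its probe sets, against 0.65) changed sign without passing, and the cause was not tested. With the replicate block, 4 chains rose and 1 fell, the same counts as without it, and the adjusted p of Csf2ra was 0.0269. Same-numbered samples did not deviate together (r of -0.01, -0.10 and -0.04), so the numbers do not pair the samples. Of 1474 values of 84 other genes covered by the rule for named genes under the alternatives, 66 lost and 26 gained a call. Dim signals limit Il5ra and Lifr.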
